A study of Mus musculus with 32 samples.

Results

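The nuclear genes for the subunits of respiratory complexes II to V were compared between 2 mouse models of medulloblastoma, a malignant tumor of the hindbrain. The members were the protein-coding genes of the count table whose mouse symbol is Sdha, Sdhb, Sdhc, Sdhd or Cyc1, or begins with Uqcr, Cox4 to Cox8, or Atp5, which gave 48 of 37310 genes. The rule reads gene symbols and types only. Of the 48 members, 39 are subunits found in most tissues, 7 are isoforms known from restricted tissues (Cox4i2, Cox6a2, Cox6b2, Cox7a1, Cox7b2, Cox8b and Cox8c), and Cox7a2l and Atp5s are related proteins that carry a subunit-like symbol.

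In the inner mitochondrial membrane, complex II (succinate dehydrogenase) passes electrons from succinate to ubiquinone, complex III (cytochrome bc1) passes them on to cytochrome c, and complex IV (cytochrome c oxidase) passes them to oxygen. Complexes III and IV pump protons as they do so, and complex V (ATP synthase) lets the protons flow back and makes ATP. Every subunit of complex II is encoded in the nucleus, whereas complexes III, IV and V combine nuclear subunits with a few that mitochondrial DNA encodes. Several subunits of complex IV exist as a common form and as a form associated with striated muscle, lung or testis, and the c subunit of complex V comes from 3 nuclear genes whose mature proteins are the same.

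RNA of 6 GMYC and 8 GTML tumors was measured by bulk RNA sequencing of fresh-frozen brain tumor biopsies on the Ion Torrent platform. GMYC mice are Glt1-tTA/TRE-MYC animals, in which a transactivator driven by the Glt1 promoter switches on a MYC transgene in hindbrain cells unless doxycycline is given, and GTML is the corresponding model with a MYCN transgene. All transgenic lines were kept on an FVB/N background, no other allele or agent is labelled for these tumors, and ages at biopsy are not given. The labels number the biopsies but do not say that each came from a separate mouse, so the p-values measure the spread between these samples.

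Total counts were between 6218378 and 7279811 in GMYC tumors and between 4602294 and 6317404 in GTML tumors. Reads counted on Myc were at 33.4 to 166 CPM (counts scaled by the TMM-adjusted library total) in GMYC tumors and at 2.60 to 8.68 CPM in GTML tumors, and those on Mycn were at 7.65 to 34.4 and at 119 to 191 CPM, and neither gene overlapped between the models. GMYC 6 had the lowest Myc level of its model, against at least 134 CPM in the other 5, and its highest Mycn level, so that Mycn (34.4 CPM) was slightly above Myc (33.4 CPM) in this library. The study's methods speak of earlier and newer GTML tumors, and the labels do not say which are which, so the sequencing run of each GTML tumor is not known here and its part in the results was not tested. Small nucleolar RNAs took a share of counts that divided the libraries at 0.3%, with GMYC 1 to 4 and GTML 1 and 2 above it and GMYC 5 and 6 and GTML 3 to 8 below it. In the order of the series' samples, the tumors above this split come first and those below it follow. The split therefore cannot be told apart from this order, and both are unevenly shared between the models. GTML 2 stood apart, with markers of Group 3 medulloblastoma that summed to 637 CPM against 1224 to 1648 CPM in the other GTML tumors. The study described an outlier GTML tumor with a signature like the sonic hedgehog (SHH) subgroup of medulloblastoma. It compared the models on the tumors classified as Group 3. The labels do not say which tumor the outlier was, and all GTML tumors were kept here. Counts of Y-linked genes were present in every GMYC tumor and near 0 (at most 16) in GTML 2, 3, 5 and 8. In bulk RNA, fewer cells of a type and less RNA per cell cannot be told apart.

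Most of the subunit genes were higher in GMYC tumors. The study's own gene set analysis of these models had already reported oxidative phosphorylation markers as upregulated in GMYC tumors. A difference in this direction was therefore known beforehand, and the values below come from the same tumors. Of the 48 members, 46 passed the filter on low counts (CPM above 1 in at least 3 tumors), and 31 of these were higher in GMYC tumors at an adjusted p under 0.05 (edgeR quasi-likelihood test, Benjamini-Hochberg over 21024 genes). That is 67.4% of the tested members, while 9.71% of all tested genes were higher in GMYC tumors. A single member, Cox8b, was higher in GTML tumors, where 11.5% of all tested genes were. Cox8b was at most at 0.71 CPM in GMYC tumors, so it passed the filter only through GTML tumors. It could enter the test only by being high there, and its call is limited by this. The median log2 fold change of the members (GMYC over GTML throughout) was 0.50, a 1.41-fold difference, beside a median of -0.04 and quartiles of -0.54 and 0.34 over all tested genes. For 12 members every GMYC tumor lay above every GTML tumor, which held for 2.48% of all tested genes. The differences were small for single genes. At an adjusted p under 0.01, 10 members were higher in GMYC tumors (2.14% of all tested genes), and none of them also had a log2 fold change above 1 (1.1%). The count of 31 fell to 15 with a term for Y-linked counts (3.62% of all tested genes), to 5 without GTML 5, 6 and 7, the 3 libraries of lowest total count (1.38%, median 0.37), and to 0 among the 6 tumors above the small nucleolar RNA split (0.0106%, median 0.22). In fits that left out 1 tumor, 18 of the 31 members kept their call each time, and Sdhb, Uqcrq, Uqcr10, Cox6a1, Cox6c, Atp5a1, Atp5e, Atp5f1, Atp5h, Atp5j, Atp5j2, Atp5l and Atp5mpl lost it in at least 1 of them.

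**Figure D1:**
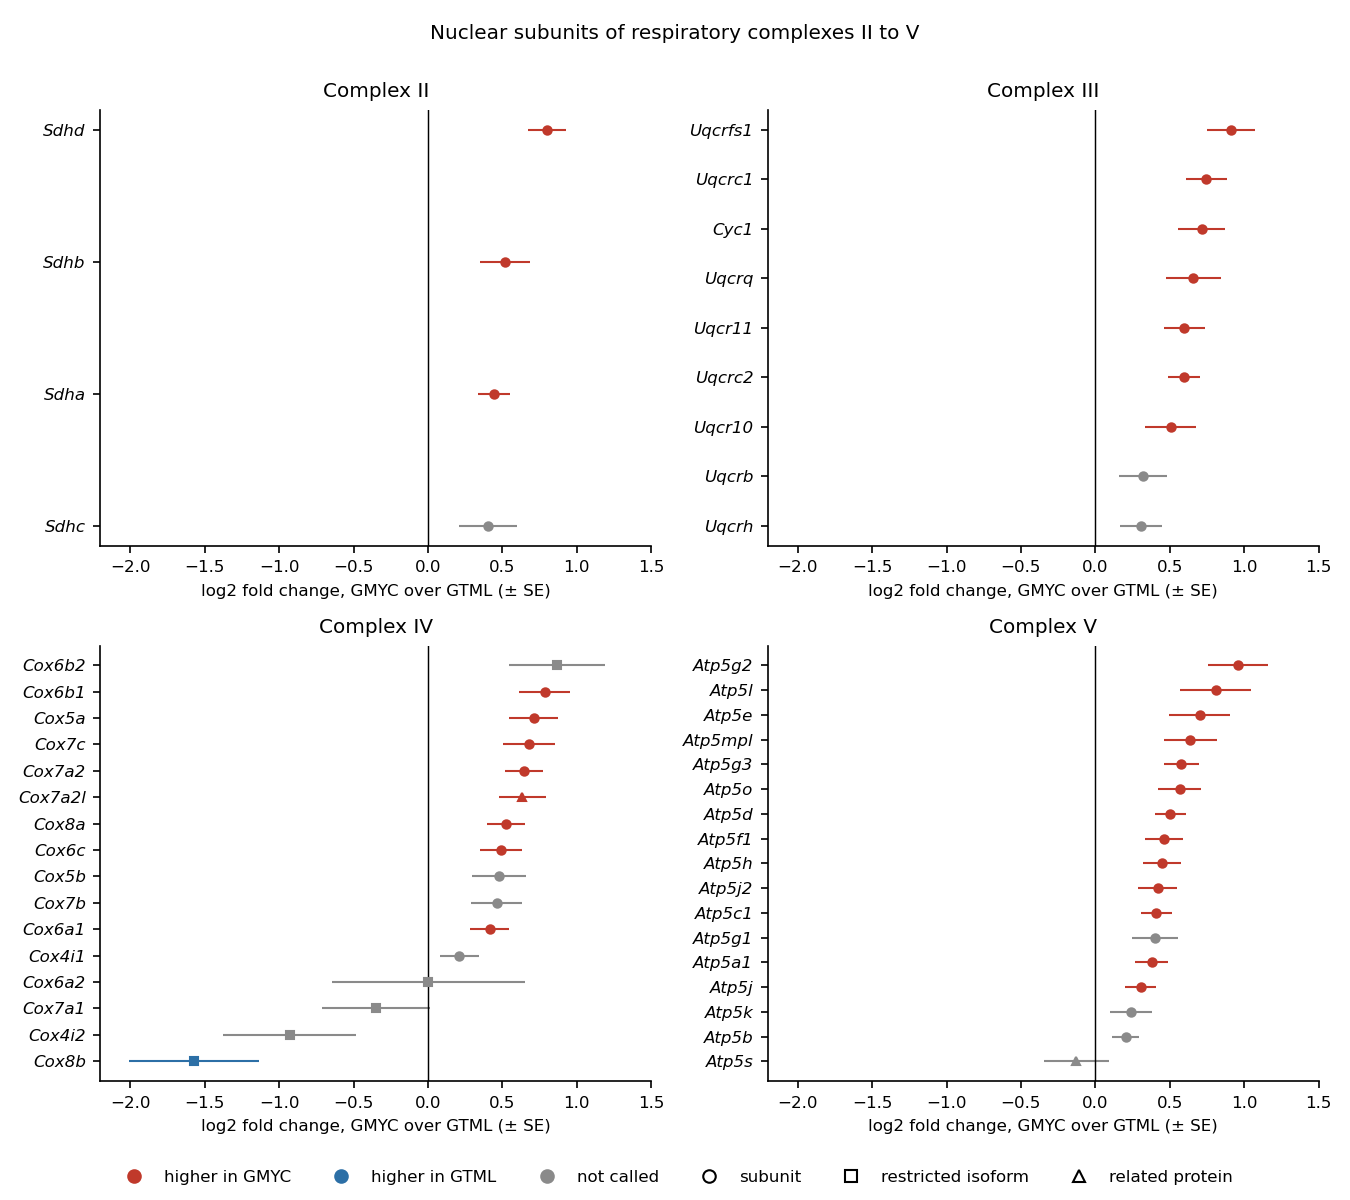
Log2 fold change (GMYC over GTML) with its standard error for the 46 tested members, one panel per complex. Red marks genes higher in GMYC tumors, blue the gene higher in GTML tumors and grey genes that did not pass the test, while squares are restricted isoforms and triangles related proteins. The 39 common subunits lie to the right of 0, and Cox8b, Cox4i2, Cox7a1 and Atp5s lie to the left.

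All 39 common subunits had a positive log2 fold change, between 0.20 and 0.96, and 30 of them passed the test. With an offset that removes the trend of each tumor with exon length, 1 of the 39 changed sign, and the log2 fold change of Atp5k was -0.049. Levels per exon length differed widely between the genes of one complex. In CPM per kb of exon, averaged over the 14 tumors, Atp5a1 stood at 118, Atp5b at 82.1, Cox6a1 at 78.3 and Sdhd at 65.6, while Cox5a stood at 8.75 and Atp5l, whose annotated exons cover 6443 bases, at 1.26. These values depend on the annotation, since exon length sums all annotated exons of a gene. The principal transcript has 645 of 2101 bases for Cox5a, 544 of 6443 for Atp5l and 1231 of 1231 for Sdhd.

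Of the 4 genes of complex II, 3 were higher in GMYC tumors. Sdhd, a membrane anchor subunit that helps hold ubiquinone, spanned 90.8 to 127 CPM around a median of 106 in GMYC tumors and 49.8 to 80.5 CPM around a median of 60.3 in GTML tumors. The models did not overlap for Sdhd, and its log2 fold change was 0.80 (SE 0.129, adjusted p = 0.00276), the smallest adjusted p among the members. Sdha, the flavoprotein that oxidizes succinate, ranged from 200 to 238 CPM (median 232) against 138 to 206 CPM (median 163), with 7 of 8 GTML tumors below the lowest GMYC tumor (log2 fold change 0.44, adjusted p = 0.0124). Sdhb, the iron-sulfur subunit that takes the electrons onward, ranged from 96.8 to 132 CPM (median 113) against 54.9 to 115 CPM (median 70.0), where GTML 2 and GTML 4 reached into the GMYC range (log2 fold change 0.52, adjusted p = 0.0397). The other anchor subunit, Sdhc, did not pass the test (0.41, SE 0.194, adjusted p = 0.137), and 6 of 8 GTML tumors lay below the lowest GMYC tumor.

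Complex III held 7 genes higher in GMYC tumors out of 9, with the highest median log2 fold change of the 4 complexes, 0.60. Both subunits that carry the redox groups were among them. Uqcrfs1, the Rieske iron-sulfur protein, spanned 89.0 to 109 CPM around a median of 101 in GMYC tumors and 39.4 to 83.8 CPM around a median of 50.4 in GTML tumors, without overlap, and had a log2 fold change of 0.91 (SE 0.162, adjusted p = 0.00371). Cyc1, cytochrome c1, ranged from 89.8 to 152 CPM (median 107) against 53.8 to 93.8 CPM (median 67.2), with GTML 2 and GTML 4 inside the GMYC range (0.71, SE 0.157, adjusted p = 0.0086). The 2 large core proteins, which are related to mitochondrial processing peptidases, were higher as well. Uqcrc1 ranged from 152 to 183 CPM (median 165) against 80.2 to 152 CPM (median 90.5), where GTML 1 alone reached the lowest GMYC tumor (0.74, SE 0.137, adjusted p = 0.0044). Uqcrc2 did not overlap between the models (0.60, SE 0.107, adjusted p = 0.00401). Of the 5 small subunits, Uqcrq, Uqcr10 and Uqcr11 were higher in GMYC tumors, with log2 fold changes of 0.66, 0.51 and 0.60. Uqcrb, a ubiquinone-binding protein, and Uqcrh, the hinge protein beside cytochrome c1, did not pass the test (0.32 and 0.31).

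Of the 10 common subunits of complex IV, 7 were higher in GMYC tumors (Cox5a, Cox6a1, Cox6b1, Cox6c, Cox7a2, Cox7c and Cox8a), with a median log2 fold change of 0.51 over the 10. Cox6b1, a small subunit on the side facing cytochrome c, spanned 51.4 to 70.2 CPM around a median of 62.9 in GMYC tumors and 24.999 to 53.6 CPM around a median of 33.5 in GTML tumors, with GTML 1 inside the GMYC range (0.78, SE 0.174, adjusted p = 0.00895). Cox5a, which sits on the matrix side, ranged from 20.5 to 25.9 CPM (median 24.2) against 11.5 to 17.99 CPM (median 13.3), without overlap (0.71, SE 0.163, adjusted p = 0.01). Cox7a2, Cox7c and Cox8a did not overlap either. The other 3 common subunits did not pass the test. Cox4i1, the common form of the largest nuclear subunit, ranged from 114 to 126 CPM (median 117) against 79.1 to 147 CPM (median 93.1), so that the GTML range enclosed the GMYC range (0.21, SE 0.132, adjusted p = 0.247). Cox5b was at 0.48 (adjusted p = 0.0726) and Cox7b at 0.46 (adjusted p = 0.0642).

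In complex V, 13 of 17 genes were higher in GMYC tumors, with a median log2 fold change of 0.45. Atp5a1 and Atp5b, which form the catalytic head, had the highest levels per exon length of all members. Atp5a1, the alpha subunit, spanned 385 to 470 CPM around a median of 427 in GMYC tumors and 260 to 424 CPM around a median of 301 in GTML tumors, with 2 GTML tumors inside the GMYC range (log2 fold change 0.38, adjusted p = 0.0268). Atp5b, the beta subunit that carries the catalytic sites, ranged from 347 to 411 CPM (median 372) against 285 to 413 CPM (median 314) and did not pass the test (0.20, SE 0.0903, adjusted p = 0.113). The stalk genes Atp5c1, Atp5d and Atp5e were higher in GMYC tumors (0.41, 0.50 and 0.70), and Atp5c1 and Atp5d did not overlap between the models. All 4 genes of the peripheral stalk, which keeps the head from turning, were higher in GMYC tumors, from Atp5j at 0.31 to Atp5o at 0.57. Of these 4, Atp5o alone kept its call in every fit that left out 1 tumor, and the log2 fold change of Atp5j reached an adjusted p of 0.120 without GMYC 1 and 0.0576 without TMM scaling. Among the small membrane subunits, Atp5l was at 8.09 to 12.7 CPM (median 11.4) against 2.59 to 8.29 CPM (median 6.12) (0.81, SE 0.239, adjusted p = 0.0275), Atp5mpl at 0.64 and Atp5j2 at 0.42 also passed, and Atp5k did not (0.24, adjusted p = 0.227).

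The 3 genes of the c-ring, the rotor that turns as protons pass, did not differ alike. Atp5g2 spanned 22.5 to 38.0 CPM around a median of 29.5 in GMYC tumors and 9.91 to 22.8 CPM around a median of 14.0 in GTML tumors, and only GTML 2 reached the lowest GMYC tumor, GMYC 4. Its log2 fold change of 0.96 (SE 0.203, adjusted p = 0.00757) was the highest among the 46 tested members. Atp5g3, the most abundant of the 3 per exon length, ranged from 98.0 to 128 CPM (median 113) against 62.1 to 92.5 CPM (median 71.2), without overlap (0.58, SE 0.116, adjusted p = 0.0063). Atp5g1 ranged from 57.3 to 77.3 CPM (median 65.0) against 37.0 to 69.7 CPM (median 52.7) and did not pass the test (0.40, SE 0.155, adjusted p = 0.0733). As a share of the 3 genes per exon length, Atp5g2 made up 21.3% ± 2.14 (SD, n = 6) in GMYC tumors and 16.8% ± 2.19 (SD, n = 8) in GTML tumors (exact two-sided permutation test, p = 0.00466, adjusted over 7 families 0.0163). The ranges of this share were 18.9 to 24.1% and 13.2 to 21.0%, where GTML 2 again overlapped the GMYC tumors. The share of Atp5g2 in its subunit family differed by 0.873 percentage points among the tumors above the small nucleolar RNA split and by 7.69 among those below it.

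Promoter letters were looked at because the members moved together and MYC proteins bind the E-box CACGTG, while NRF1, a known regulator of respiratory genes, binds GCGCA and GCGC with any base between them. The RefSeq window of 250 bases before to 50 bases after the gene start on GRCm38.p6 was found for 36 of the 48 members. Both strands were searched, and in Atp5g3, which holds both motifs, they do not overlap. The E-box was in 4 of the 36 windows (11.1%, Atp5f1, Atp5g1, Atp5g3 and Atp5l) and in 8.09% of 27025 genes, and the NRF1 motif was in 10 (27.8%) and in 5.19% of genes. Of the 4 members with the E-box, 3 were higher in GMYC tumors (all but Atp5g1). Of the 10 members with the NRF1 motif, 9 were higher in GMYC tumors (all but Atp5k), beside 25 of all 36 with a window. These are matches of letters and not measured binding. The level of Nrf1 itself did not pass the test, with a negative log2 fold change (-0.31, adjusted p = 0.13). The 250 bases before the start are shown, 5′ to 3′ on the gene's strand with a motif in capitals, for the c-ring genes with the highest level and the highest fold change and for Cox8b, the member higher in GTML tumors. For Atp5g2 (chr15:102671048-102671297, minus strand) the NRF1 motif begins 42 bases before the start, for Atp5g3 (chr2:73911327-73911576, minus strand) the E-box begins 238 bases before it, and the window of Cox8b (chr7:140900447-140900696, minus strand) holds neither motif.
Atp5g2: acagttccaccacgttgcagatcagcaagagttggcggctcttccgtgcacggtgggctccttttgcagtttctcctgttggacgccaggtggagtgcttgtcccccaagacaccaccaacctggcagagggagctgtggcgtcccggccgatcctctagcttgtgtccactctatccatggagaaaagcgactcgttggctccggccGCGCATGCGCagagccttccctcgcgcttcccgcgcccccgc
Atp5g3: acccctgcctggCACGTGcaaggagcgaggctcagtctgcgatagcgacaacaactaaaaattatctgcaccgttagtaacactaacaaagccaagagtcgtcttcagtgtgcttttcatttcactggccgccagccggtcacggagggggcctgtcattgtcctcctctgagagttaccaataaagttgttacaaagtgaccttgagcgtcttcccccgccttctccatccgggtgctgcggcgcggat
Cox8b: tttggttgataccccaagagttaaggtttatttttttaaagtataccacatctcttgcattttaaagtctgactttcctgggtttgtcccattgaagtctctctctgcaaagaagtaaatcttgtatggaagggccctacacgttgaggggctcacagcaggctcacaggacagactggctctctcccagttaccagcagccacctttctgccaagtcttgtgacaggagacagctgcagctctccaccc

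Of the 7 restricted isoforms, all of complex IV, 5 passed the filter, and Cox8b did so only through GTML tumors. None was higher in GMYC tumors (9.71% of all tested genes) and Cox8b was higher in GTML tumors (11.5% of all tested genes). With 5 genes, such counts are near these shares. The 5 log2 fold changes ran from -1.57 to 0.87, with a median of -0.35 and 2 of them positive. All 7 isoforms were far below their common partners, and their counts were low. Cox8b, the form of striated muscle and brown fat, had 1 to 5 counts per GMYC tumor and 3 to 16 counts per GTML tumor. It spanned 0.15 to 0.71 CPM around a median of 0.45 in GMYC tumors and 0.53 to 2.45 CPM around a median of 1.39 in GTML tumors, with GTML 1 and GTML 2 inside the GMYC range (log2 fold change -1.57, SE 0.437, adjusted p = 0.0212). The log2 fold change of Cox8b lost its call without GMYC 3 (adjusted p = 0.0504), without the 3 tumors of lowest total count (0.107), with counts thinned to the lowest total (0.0965), with the small nucleolar RNA split (0.0985) or Y-linked counts (0.105) as a term, below the split (0.0905), in tumors 1 to 6 of each model (0.0804) and with the replicate block (0.161), and above the split it was not tested. As a share of Cox8a, Cox8b and Cox8c per exon length, Cox8b was 1.504% ± 0.740 (SD, n = 6) in GMYC tumors and 6.52% ± 3.42 (SD, n = 8) in GTML tumors (exact two-sided permutation test, p = 0.002, adjusted 0.014). The share of Cox8b in its subunit family differed by -1.23 percentage points among the tumors above the split and by -6.00 among those below it.

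Cox7a1, the muscle form of subunit 7a, did not pass the test of its own level (-0.35, SE 0.363, adjusted p = 0.501), at 0.70 to 3.68 CPM (median 1.46) and 1.30 to 3.21 CPM (median 2.26). Its share beside Cox7a2 was 3.84% ± 2.18 (SD, n = 6) in GMYC tumors and 7.75% ± 2.69 (SD, n = 8) in GTML tumors (exact permutation test, p = 0.0133, adjusted 0.0311), and GMYC 5 and GMYC 6 lay within the GTML range. Leaving out 1 tumor at a time took the adjusted p of this share from 0.0109 to 0.0689, and the call was lost without GMYC 1, 2, 3 or 4 or without GTML 3, 6, 7 or 8. Cox4i2, the lung form of subunit 4 that is also found in mural cells of vessels, was at 1.07 to 4.38 CPM (median 1.57) against 1.09 to 6.40 CPM (median 3.73). The GTML tumors fell into higher and lower ones, since GTML 3 and GTML 5 to 8 were above 3.3 CPM and GTML 1, 2 and 4 at most at 2.11 CPM. Cox4i2 passed neither test, with a log2 fold change of -0.93 (SE 0.448, adjusted p = 0.141) and a share of 3.20% ± 1.90 (SD, n = 6) against 7.46% ± 4.62 (SD, n = 8) beside Cox4i1 (exact permutation test, adjusted p = 0.0793).

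Cox6b2, the testis form of subunit 6b, went the other way in level. It spanned 4.64 to 15.3 CPM around a median of 8.03 in GMYC tumors and 2.91 to 7.99 CPM around a median of 4.08 in GTML tumors, and it did not pass the test (0.87, SE 0.321, adjusted p = 0.0642). Its share beside Cox6b1 was 8.15% ± 2.83 (SD, n = 6) and 8.39% ± 3.99 (SD, n = 8). Cox6a2, the heart and muscle form of subunit 6a, was at 0.28 to 1.38 CPM (median 0.69) and 0.16 to 2.45 CPM (median 0.41), with a log2 fold change of 0.00 (SE 0.647). Cox7b2 had between 0 and 4 counts per tumor and Cox8c a single count, in GMYC 2, so neither was tested. The share of Cox7b2 beside Cox7b was 0.28% ± 0.309 (SD, n = 6) and 1.46% ± 1.74 (SD, n = 8) (exact permutation test, adjusted p = 0.0793).

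**Figure D2:**
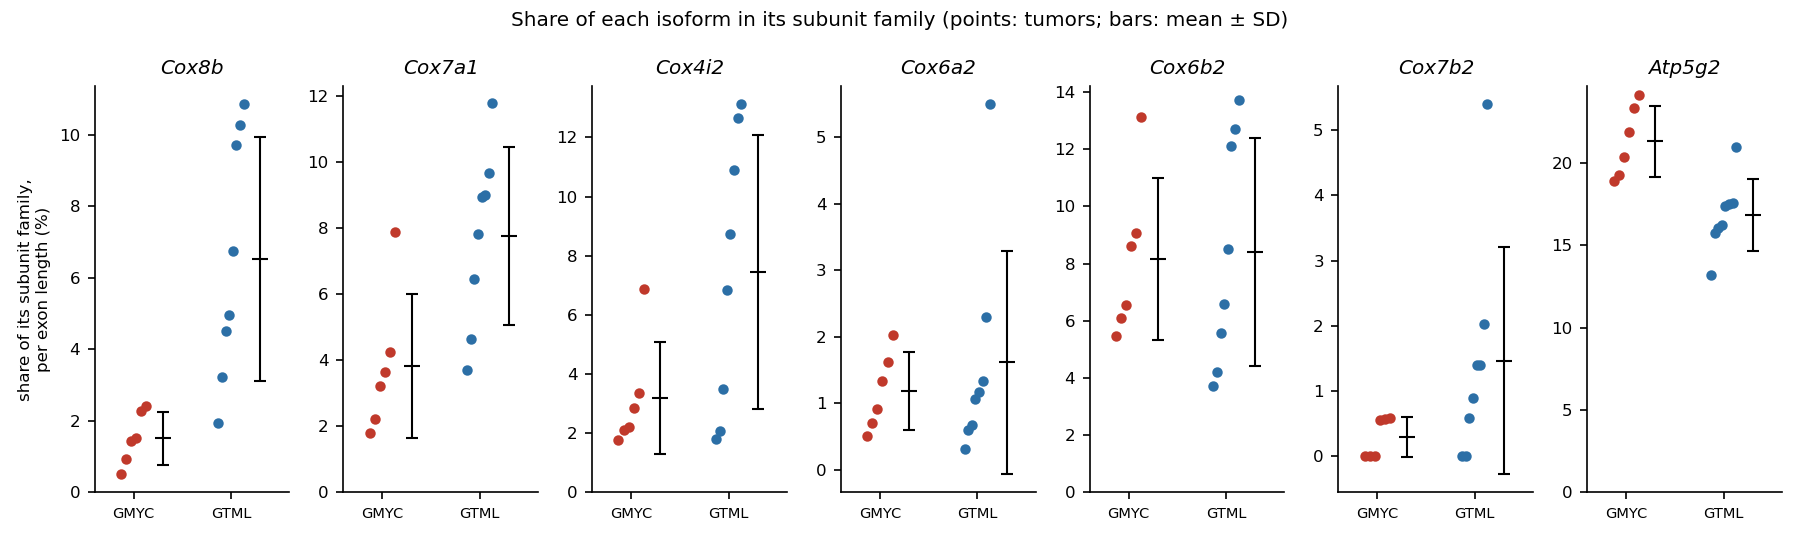
Share of each isoform in its subunit family per exon length, in percent, in the 6 GMYC (red) and 8 GTML (blue) tumors, with the mean and SD beside the points. The Cox8b share lies at or below 2.40% in GMYC tumors and reaches 10.9% in GTML tumors, and the Atp5g2 share is higher in GMYC tumors with GTML 2 as the overlapping tumor.

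Markers of tissues that use these isoforms were read in the same libraries. The summed level of 9 striated muscle markers was 13.9 to 31.7 CPM in GMYC tumors and 14.0 to 254 CPM in GTML tumors, none was at 0 in all tumors, and none passed the test. All 9 had a negative log2 fold change (median -2.26), and Actn3 came nearest to a call (-0.91, adjusted p = 0.0505). The sums of GTML tumors other than GTML 2 and GTML 8 were at most 24.8 CPM. GTML 8, with the highest Cox8b and Cox6a2 levels, had 254 CPM, and GTML 2, with 101 CPM, had Cox8b at 0.65 CPM. The log2 fold change of Cox8b without GTML 8 was -1.41 (adjusted p = 0.039). The 3 brown fat markers summed to 0.15 to 0.99 CPM and to 0.81 to 4.53 CPM, and Ucp1, the only one tested, was higher in GTML tumors (-2.58, adjusted p = 0.00722). Ucp1 was at most at 0.56 CPM in GMYC tumors, so it also passed the filter only through GTML tumors. Of 11 markers of pericytes and smooth muscle none passed the test (156 to 543 CPM against 174 to 729 CPM), and of 7 endothelial markers Kdr and Esam were higher in GTML tumors (70.4 to 187 CPM against 138 to 288 CPM). Markers of the other cell types covered microglia, astrocytes, oligodendrocytes, cerebellar neurons and erythrocytes. They gave 3 of 4 erythrocyte genes higher in GMYC tumors, 1 of 4 oligodendrocyte genes higher in GTML tumors and no call among 6 microglial, 4 astrocytic and 3 cerebellar neuron genes tested. The 4 testis markers summed to at most 5.09 CPM, and the 1 tested did not pass. Of 5 markers of Group 3 medulloblastoma, the tumor type studied with these models, none passed the test, none was at 0 in all tumors and their sums were 990 to 1540 CPM and 637 to 1648 CPM. The part of these cell types in the isoform values was not tested.

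Cox7a2l, a factor that joins complexes III and IV into supercomplexes, was higher in GMYC tumors (0.63, SE 0.157, adjusted p = 0.0135). Atp5s, related to coupling factor B, was not called (-0.13, SE 0.217). The annotation also held 7 processed pseudogenes with matching symbols, which were not counted as members. Reads can be split between such copies and their parents. Cox6c2 had 120 to 168 counts per GMYC tumor and 20 to 69 per GTML tumor (1.37, adjusted p = 0.0028), while its parent Cox6c had 397 to 597 and 215 to 407. Atp5l2-ps (1.58), Uqcrh-ps2 (1.09) and Uqcrh-ps1 (0.92) were also called higher in GMYC tumors, so the levels of Cox6c, Atp5l and Uqcrh carry this uncertainty.

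The level of the whole set was read tumor by tumor. The 48 members took 0.349 to 0.431% of all counts in GMYC tumors (0.385% ± 0.0292, SD, n = 6) and 0.231 to 0.348% in GTML tumors (0.277% ± 0.0440, SD, n = 8), so GTML 1 lay just below GMYC 2. The median deviation of the tested members from their mean over the 14 tumors, on the log2(CPM + 0.5) scale, was 0.15 to 0.46 in GMYC tumors and -0.50 to 0.10 in GTML tumors. GMYC 5 was the highest tumor. GMYC 6, whose Myc level was the lowest of its model, was at 0.35 and second among the GMYC tumors. GTML 5, 6 and 7 were the lowest, at -0.45, -0.50 and -0.41, and were also the 3 libraries of lowest total count. GTML 1 and GTML 4 were the highest of their model at 0.10 and -0.01. The complexes moved together across tumors. In each of them GMYC 5 was highest and GTML 5, 6 and 7 were lowest, and no GTML tumor reached the lowest GMYC tumor in any complex. The gap was narrow, since in complex III GTML 1 was at 0.15 and GMYC 2 at 0.16.

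**Figure D3:**
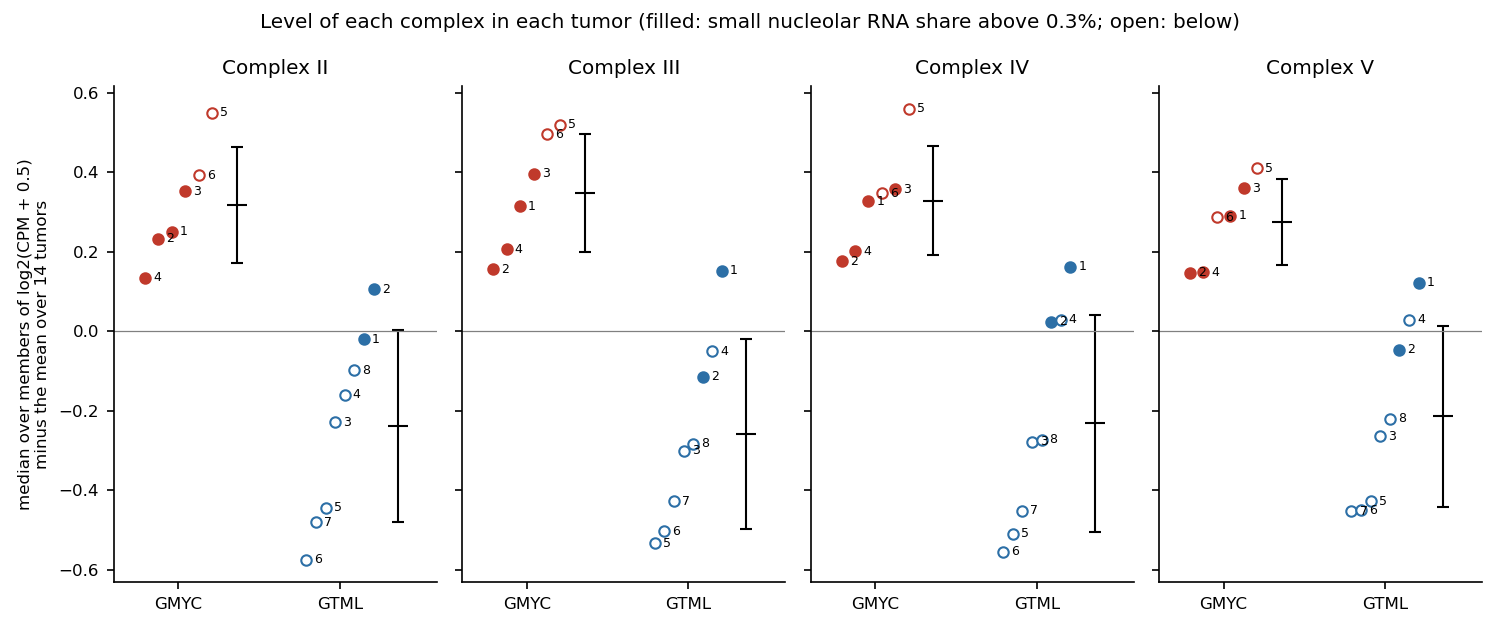
Median over the common subunits of each complex of log2(CPM + 0.5) minus the gene's mean over the 14 tumors, per tumor, with mean and SD of each model. Numbers name the tumors, and filled points are libraries with over 0.3% of counts on small nucleolar RNAs. Among GTML tumors, numbers 5, 6 and 7 lie lowest in each panel.

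The difference between the models was not of one size across the libraries. Among the 6 tumors above the small nucleolar RNA split, no member was called in either direction (0.0106% of all tested genes higher in GMYC tumors), 35 of 44 tested members were positive and the median log2 fold change was 0.22. Among the 8 tumors below it, 21 members were higher in GMYC tumors (6.69% of all tested genes), 42 of 45 were positive and the median was 0.75. Both sides have few tumors of one model, with 2 GTML tumors above and 2 GMYC tumors below. Atp5g2 had a log2 fold change of 0.29 above and 1.48 below the split, Uqcrfs1 of 0.35 and 1.23, and Cyc1 of 0.29 and 1.16. Sdhc (-0.18 and 0.85) and Cox4i1 (-0.19 and 0.41) changed sign, and Atp5j (0.40 and 0.30) and Cox6b2 (1.03 and 1.29) had like values on both sides. With the split as a term in the fit over all 14 tumors, 22 members were higher in GMYC tumors (6.77%) and the median was 0.48. With every library thinned to the lowest total, 30 members were higher in GMYC tumors (8.55%). Leaving out 1 tumor at a time gave 21 members without GMYC 3 (5.65%) or without GMYC 5 (6.43%) and 33 without GMYC 2 (9.21%) or without GTML 2 (15.1%). The count was 35 with DESeq2 (12.1%), 32 with limma-voom (11.4%), 32 among protein-coding genes alone (8.85%), 30 without TMM scaling (9.8%), 30 with a filter at CPM above 5 (11.3%), 28 with the exon length offset (10.5%) and 27 with no filter (4.96%). In tumors 1 to 6 of each model it was 18 (5.11%), and with the replicate number as a block 0 (0.437%). The part of these library properties in the result was not tested.

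**Figure D4:**
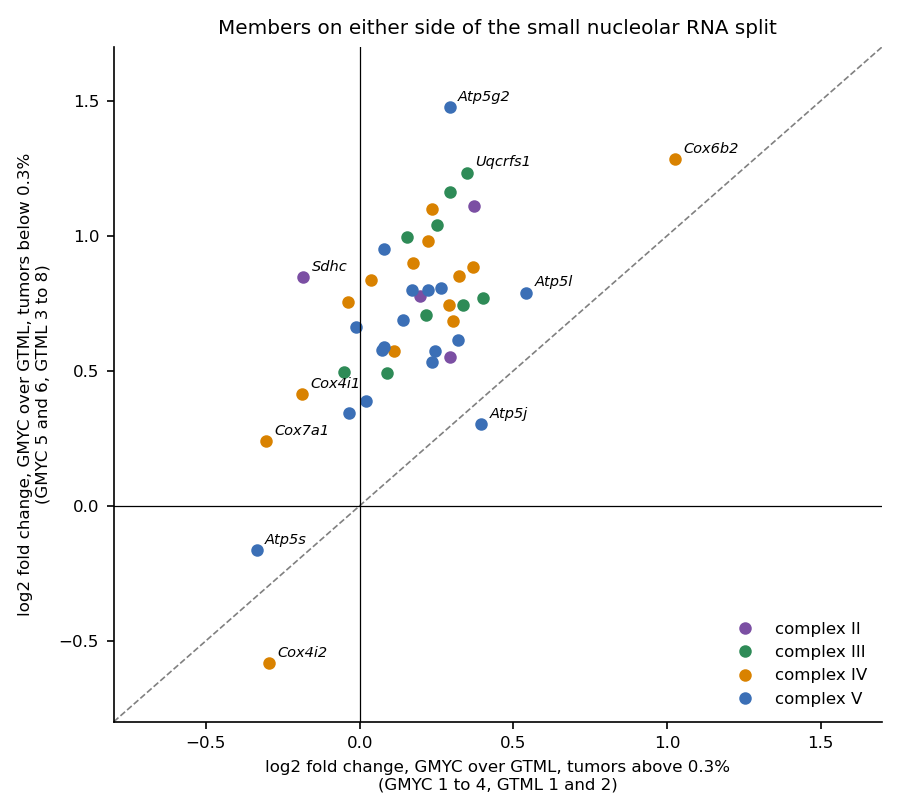
Log2 fold change (GMYC over GTML) of each member tested on both sides, from the tumors with over 0.3% of counts on small nucleolar RNAs (x axis) and from the others (y axis), colored by complex, with the dashed line marking equal values. Most points lie above the dashed line, and Atp5j (0.40 and 0.30) and Cox4i2 (-0.29 and -0.58) lie below it.

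The deposited counts of the members varied little among GMYC tumors. For members with a mean count of 300 to 600, the median ratio of variance to mean was 2.49 among GMYC tumors (18 genes) and 23.8 among GTML tumors, beside 14.6 and 23.4 for 3273 other protein-coding genes of the same mean. A ratio of 1 is what counting error alone gives. The ratio was under 1 among GMYC tumors for 5 of 41 members with a mean count of at least 50 (12.2%) and for 1.4% of 11576 other protein-coding genes. Atp5j2 had 429 to 449 counts in the 6 GMYC tumors and 186 to 366 in the 8 GTML tumors, and Atp5b had 2554 to 2634 and 1384 to 2343. Cox6a1, Cox8a and Uqcr10 were the other 3. The ratio was at or above 1 for every one of the 41 members among GTML tumors. After scaling to CPM the member with the smallest coefficient of variation among GMYC tumors was Cox4i1, at 3.82%, beside 22.9% among GTML tumors.

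**Figure D5:**
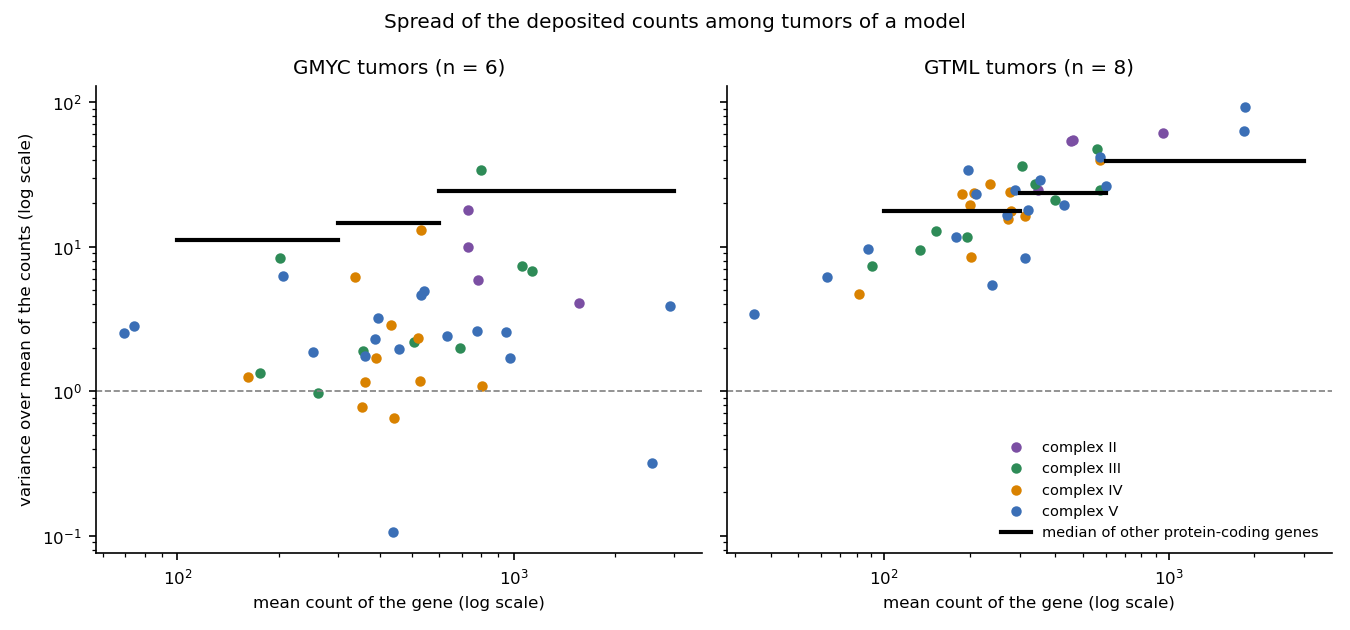
Variance over mean of the deposited counts against the mean count for the 41 members with a mean of at least 50 counts, in the 6 GMYC and the 8 GTML tumors, both axes on a log scale. Black lines are medians of other protein-coding genes in 3 ranges of mean count over all tumors, and the dashed line is a ratio of 1. Most members lie below the black lines among GMYC tumors and around them among GTML tumors.

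No protein-coding gene with at least 500 exon bases exceeded 1.27 counts per exon base in any tumor, and the highest value among the members was 0.998, for Atp5a1. The 32 members that reached 0.2 counts per exon base in some tumor had 24 genes higher in GMYC tumors and a median log2 fold change of 0.51. The 14 below it had 7 and a median of 0.41. These 14 include the 5 tested restricted isoforms and Atp5s, so the groups also differ in the kind of gene. The division depends on summed exon length as well, since the principal transcript of Cox6c has 738 of its 3567 bases. How duplicate reads were treated is not given in the sources used here, and the part of such a limit in the fold changes was not tested.

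Other genes of the same pathway were read from lists. Of the 13 subunits encoded by mitochondrial DNA, mt-Nd3 of complex I was higher in GMYC tumors (0.44, adjusted p = 0.0347). In GTML tumors mt-Co1 of complex IV was higher (-0.25, adjusted p = 0.046), mt-Nd1 was at -0.24 (adjusted p = 0.1), and the median log2 fold change was -0.10. Raw counts per tumor were 1428 to 1587 for mt-Co1 and 865 to 1090 for mt-Nd1, a narrow range beside that of the total counts. Those of mt-Nd5 varied more, from 1152 to 2318. Scaling such even counts to the mostly smaller GTML totals raises their CPM there, and the part of this in the values was not tested. Of 34 assembly factors of complexes II to V that were tested, 3 were higher in GMYC tumors, a share no higher than the 9.71% of all tested genes, with a median of 0.28. They were Tmem70, which assembles ATP synthase (0.76, adjusted p = 0.0164), Taco1, which helps translate mt-Co1 (0.63, adjusted p = 0.0261), and Sdhaf2, which helps load the flavin of Sdha (0.36, adjusted p = 0.0376). Cycs, cytochrome c itself, was higher in GMYC tumors (0.58, adjusted p = 0.0404). Of 13 regulators of mitochondrial gene expression, 1 passed the test, also a share no higher than among all tested genes. Gabpa was higher in GMYC tumors (0.35, adjusted p = 0.0188), Esrra (0.42, adjusted p = 0.0742) and Ppargc1a (1.47, adjusted p = 0.0991) did not pass the test, and the median was 0.13. Of 11 tested genes that mark mitochondrial mass, 5 were higher in GMYC tumors (Vdac1, Vdac2, Cs, Tomm22 and Phb), with a median of 0.41. Citrate synthase, Cs, was at 0.60 (adjusted p = 0.00426), Vdac2, an outer membrane channel, at 0.60 (adjusted p = 0.00355), and Tomm22, a protein import receptor, at 0.72 (adjusted p = 0.0136).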

How the data were processed

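Fresh-frozen biopsies of 6 GMYC and 8 GTML tumors were analysed, while the cell-line samples were not analysed here. The authors aligned the Ion Torrent reads with STAR and then Bowtie to mm9 and deposited raw counts per gene from featureCounts with a GENCODE mm9 annotation. The submitters' processing notes list STAR 2.4.0, Bowtie2 2.2 and Subread 1.5.2. Strand, duplicates and reads with several positions are not given in the sources used here. A further 18 columns of counts matched no label and were not used.

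Gene symbols, biotypes and summed exon lengths were taken from GENCODE M21 by Ensembl ID (32620 of 37310 genes matched). No gene coordinates are given, since the counts are on mm9, except for RefSeq promoter windows on GRCm38.p6. Total counts of 4602294 to 7279811 set the precision, and counting error is only part of the spread.

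Genes with CPM above 1 in at least 3 tumors were scaled by TMM and tested with the quasi-likelihood test of edgeR 4.0.16 in R 4.3.3, on the model alone, with Benjamini-Hochberg adjustment. The fits were tested on simulated data with 20507 genes that took mean levels and library totals from this comparison, in which 93 of 100 genes changed by 1 on the log2 scale, 17 of 100 changed by 0.5 and 8 of 20307 unchanged genes were called. Every simulated gene had the same spread beyond counting error in both models, so these rates do not give the power for the members. Isoform shares, from CPM per exon length, were tested with exact two-sided permutations of the tumors, adjusted over 7 families, with 0.000333 as the share of a single arrangement. Alternatives used DESeq2 1.42.0, limma 3.58.1, other filters, scalings and thresholds, terms for library properties, and fits without 1 tumor. The fit without the 3 tumors of lowest total count and the fit of tumors 1 to 6 were chosen after seeing the data. Python 3.11.15 with scipy 1.17.1 and matplotlib 3.10.9 was used.

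The members and gene lists were chosen with earlier results of these data known. Any member could be named, and values were given in full for Atp5g2, Cox8b, Cox4i2, families with restricted isoforms, the 3 members of each complex with the largest change and any member higher in GTML tumors. Of other lists, the 3 genes with the smallest p were named, and Nrf1 because its motif was searched.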

Additional observations from a re-analysis of the deposited data

Results flagged for a closer look

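In 11 of 106 groups of values, the highest or lowest tumor lay apart, with a gap to its nearest neighbor that was a larger part of the group's range than Dixon's 95% critical value. Chance flags about 1 in 20 groups, which is 5.3 of 106.

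Among GMYC tumors, GMYC 4 was the lowest for Sdha (199.6 CPM), GMYC 5 was the highest for Sdhc (153 CPM), Cox4i1 (126 CPM) and Cox5b (67.6 CPM), and GMYC 6 was the highest for Cox4i2, both in level (4.38 CPM) and as a share beside Cox4i1 (6.89%). Among GTML tumors, GTML 1 was the highest for Uqcrc1 (152 CPM), GTML 5 was the lowest for Atp5l (2.59 CPM) and had the highest Cox7b2 share (5.399%), and GTML 8 was the highest for Cox6a2 in level (2.45 CPM) and in share (5.50%).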

How the results depend on the processing

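The 31 members higher in GMYC tumors became 22 with the small nucleolar RNA split in the fit, 15 with a term for Y-linked counts and 5 without the 3 tumors of lowest total count. The count was 10 at an adjusted p under 0.01 and 0 when a log2 fold change above 1 was also asked for. The main fit, unchanged, was also divided at 0.2 counts per exon base. Of the 31, 7 were among the 14 members under it and 24 among the 32 that reached it. The 14 include the 5 tested restricted isoforms and Atp5s. The 1 member higher in GTML tumors, Cox8b, became 0 at each of the settings named before this division. It also became 0 with CPM above 5, which removes it, and with thinned counts. With the replicate number as a replicate block both counts were 0, while the same tumors 1 to 6 without the block gave 18 and 0. Same-numbered tumors correlated between -0.21 and 0.24 and only number 1 correlated best with itself, so no pairing by number was seen. The labels do not say what the numbers stand for. These few correlations cannot settle whether the numbers pair the tumors.

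Above the split both counts were 0, the median log2 fold change was 0.22, and Sdhc (-0.18), Uqcrh (-0.051), Cox4i1 (-0.19), Cox7b (-0.037), Atp5b (-0.034) and Atp5g1 (-0.013) changed sign. Below the split the counts were 21 and 0, the median was 0.75 and Cox7a1 was at 0.24. In percentage points (GMYC minus GTML), the share of Cox6b2 in its subunit family differed by 2.70 above and 1.24 below the split, the share of Cox7a1 in its subunit family by -1.45 and -2.88, the share of Cox8b in its subunit family by -1.23 and -6.00, and the share of Atp5g2 in its subunit family by 0.873 and 7.69. Above it, the share of Cox6a2 in its subunit family differed by 0.744 and the share of Cox7b2 in its subunit family by 0.133. Few tumors of one model on each side limit the smallest p there. The log2 fold change of Cox7a1 was 0.0052 with the split term, with Atp5s at 0.031 with the Y-linked term. The log2 fold change of Cox6a2 was -0.018 with DESeq2, -0.015 without TMM, -0.28 with the exon length offset and -0.28 without the 3 tumors of lowest total count, and the log2 fold change of Atp5k was -0.049 with that offset. With a pseudocount of 0.5 the share difference of Cox7b2 was -1.39. The cause was not tested.

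Leaving out 1 tumor at a time gave 21 to 33 members higher in GMYC tumors, 0 to 1 higher in GTML tumors and a median of 0.45 to 0.55. Cox6a2 was then at -0.15 to 0.17, and share differences were -5.07 to -3.45 for Cox4i2, -0.619 to 0.123 for Cox6a2, -1.24 to 0.519 for Cox6b2, -4.72 to -3.34 for Cox7a1, -1.39 to -0.616 for Cox7b2, -5.68 to -4.40 for Cox8b and 3.92 to 5.07 for Atp5g2. Counts of 1 to 16 per tumor limit the precision of Cox8b.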
